A study of Mus musculus with 6 samples.

Results

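The 41 genes described here encode the collagens of connective tissue outside cartilage and basement membranes, together with enzymes and a chaperone that modify, fold and cross-link collagen. They were chosen by name from 58116 rows of the count table, and each symbol matched a row. They comprise 29 collagen genes, 5 lysyl oxidase genes, 3 lysyl hydroxylase genes, 3 genes for the catalytic subunit of prolyl 4-hydroxylase and Serpinh1. All 41 were among the 17006 genes that passed the filter on low counts.

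RNA came from wild-type mouse salivary gland primordia taken on embryonic day 13.5, a stage of branching epithelium set in mesenchyme. Poly(A)-selected libraries were made from 3 samples given 0 ng/ml and 3 samples given 300 ng/ml of BMP-2, a bone morphogenetic protein that signals through SMAD transcription factors, and the question was its function in gland formation. The strain and the length of the treatment are not given in the sources used here. No source says whether replicates were separate litters or cultures, so p-values reflect only how these libraries vary, which may be technical. The name of 1 BMP-2 column matches no label. Its group was read from its first letter alone, and it is referred to as the unnumbered library. The primordia were sequenced whole, and fewer cells of a type and less RNA per cell cannot be told apart.

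Collagens are trimers of alpha chains that are hydroxylated on proline and lysine in the endoplasmic reticulum, folded with the help of chaperones, secreted and assembled outside the cell. Fibrillar collagens form the bulk of stromal fibrils, and other classes sit on the fibrils, form beaded filaments or networks, or span the cell membrane. Lysyl oxidases then oxidise lysines outside the cell and so start the covalent cross-links of the fibril. In the embryonic salivary gland, collagen at the epithelial surface is known to help hold the clefts of branching buds. The group is called stromal here, but collagen XVII is a transmembrane protein of epithelial hemidesmosomes and collagen VII anchors epithelia to the stroma, so not every member is a product of stromal cells.

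Library totals ran from 19724383 to 32473558 counts and did not separate the groups (exact two-sided permutation p = 0.4, n = 3 each; the smallest p that 3 against 3 can give is 0.1). The mesenchymal marker Pdgfra was at 243 to 294 CPM and the epithelial marker Epcam at 581 to 679 CPM in control libraries, so both tissue parts of the primordium were sampled. CPM are counts scaled to the same library size after TMM normalisation. In a list of 9 genes that answer BMP signalling 7 rose (Nog, Smad9, Atoh8, Msx2, Id1, Id3 and Smad6). This list was chosen with earlier results of these data known, so it is not an independent check of the treatment labels. Without BMP-2, control replicate 3 held more skeletal muscle RNA than the other controls, with a summed level of 12 muscle markers of 103 CPM against 10.5 and 5.86 CPM in control replicates 1 and 2.

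The members spanned a wide range on a per-length scale. RPKM, which is CPM per kilobase of gene model, allows levels of different genes to be set side by side. Serpinh1, the collagen chaperone HSP47, had the highest control RPKM at 278 ± 29.3 (SD, n = 3), close to Col3a1 at 253 ± 9.88 and Col1a1 at 248 ± 23.5. The RPKM of these 3 genes overlapped between control libraries. Col1a2 at 162 ± 26.3 RPKM and Col6a1 at 135 ± 19.2 RPKM followed, and also overlapped. These 5 members were at or above 100 RPKM, while 8 members were under 1 RPKM without BMP-2. The lowest was Col19a1, at 0.0135 ± 0.0117 RPKM. Together the members took 1.23%, 1.13% and 1.23% of the counts in the control libraries and 1.18%, 0.975% and 1.38% with BMP-2. The groups overlapped, at 1.20 ± 0.0559% and 1.18 ± 0.202% (exact two-sided permutation p = 0.8, n = 3 each).

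**Figure D1:**
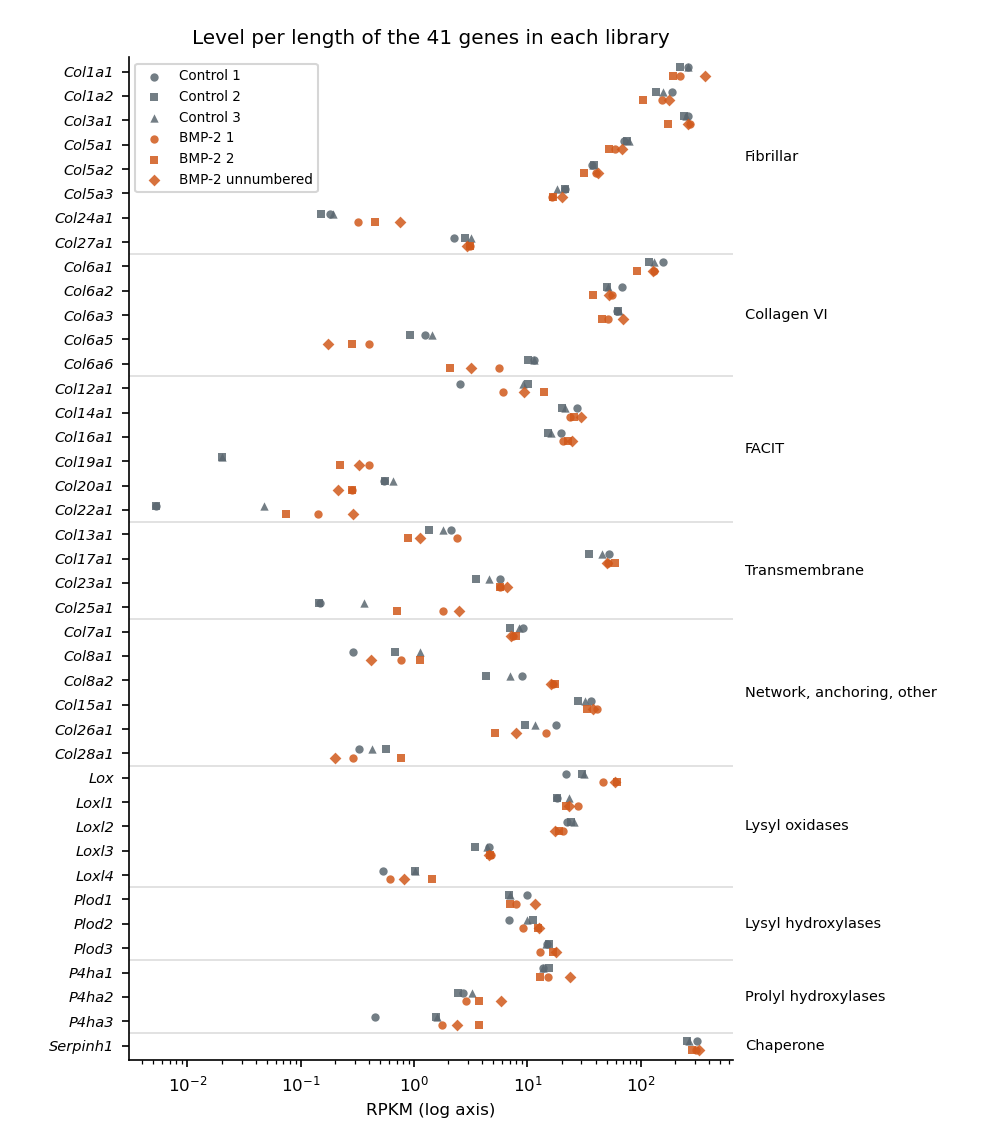
RPKM (log axis) of each of the 41 genes, in rows grouped by role, with 1 point per library (grey, 3 control libraries; orange, 3 BMP-2 libraries). The fibrillar chains Col1a1, Col1a2 and Col3a1 and the chaperone gene Serpinh1 lie at the right with overlapping groups, while Col19a1 separates the groups at the low end; its control replicate 1 had 0 counts and cannot be drawn on a log axis.

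Few of these genes were called, though at a larger share than among all tested genes. The members were chosen with earlier results of these data known, so their shares are not an independent result. With edgeR's quasi-likelihood test and Benjamini-Hochberg adjustment over all 17006 genes, 2 members rose (Col19a1 and Lox) and 1 fell (Col6a5) at an adjusted p under 0.05. That is 4.88% of members against 0.811% of all tested genes in the upward direction, 2.44% against 0.1% downward and 7.32% against 0.911% in either. At an unadjusted p under 0.05, 8 members were higher and 5 lower, or 19.5% and 12.2% of members, where 6.47% and 3.65% of all tested genes were. In either direction the shares were 31.7% and 10.1%. In 9 members every BMP-2 library was above every control, and in 5 every BMP-2 library was below, which is 22.0% and 12.2% of members against 8.76% and 6.73% of all tested genes, and 34.1% against 15.5% in either direction. Col19a1 had 0, 3 and 4 counts and Col22a1 had 1, 1 and 12 counts in control replicates 1, 2 and 3. Both passed the low-count filter only through the BMP-2 libraries, so upward was the only direction they could show. Col19a1 is in each upward share, and Col22a1 is in those at an unadjusted p and without overlap. The median log2 change, BMP-2 minus control, was 0.15 over the members and -0.0098 over all tested genes. The changes were below 0.5 in size in 30 members and at least 1 in 10.

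Other tests called more or fewer members. DESeq2 called 6 members higher (14.6%, against 2.83% of all genes it tested) and 3 lower (7.32%, against 0.874%). Its additional calls were Col8a2, Col25a1, Col24a1 and Col22a1 upward and Col6a6 and Col20a1 downward. Limma-voom called Col19a1 higher (2.44% of members, against 0.406% of all genes) and Col6a5 lower (2.44%, against 0.0529%). The estimated log2 changes of these genes in the 3 tests had the same sign.

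**Figure D2:**
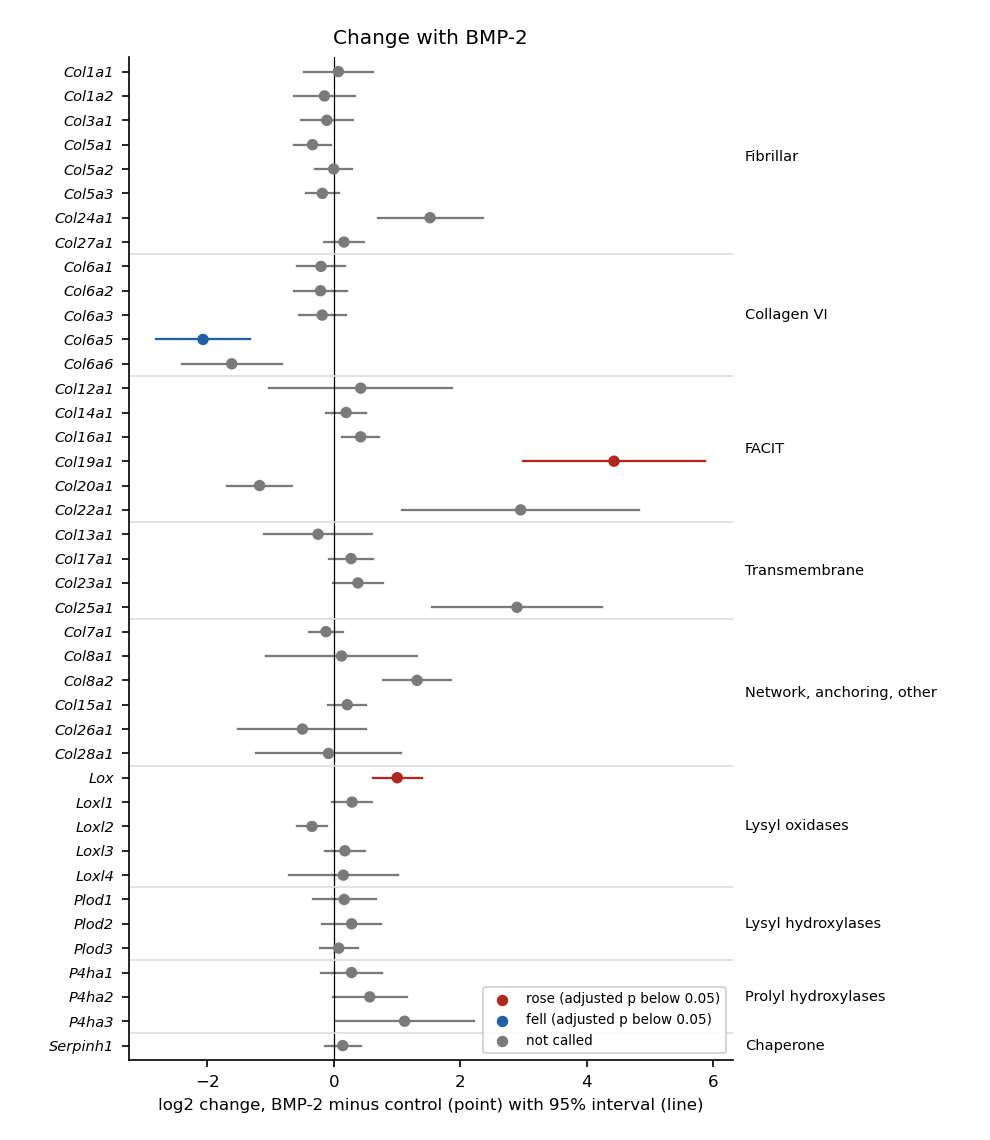
Log2 change of each of the 41 genes, BMP-2 minus control (point), with its 95% interval from the edgeR fit (line), in rows grouped by role. Col19a1 and Lox (red) rose and Col6a5 (blue) fell at an adjusted p under 0.05; most other points lie within 0.5 of 0.

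The fibrillar collagens, which build the fibrils of the stroma, held 0 called genes among 8 (edgeR; at an unadjusted p under 0.05, 1 was higher and 1 lower). Their median log2 change was -0.055. Col1a1, the major chain of collagen I, was at 1726, 1451 and 1709 CPM in control replicates 1, 2 and 3, and at 1451, 1258 and 2430 CPM in the treated libraries 1, 2 and unnumbered. The groups overlapped, and the BMP-2 libraries held both the lowest and the highest value (log2 change 0.07, SE 0.239, 95% interval -0.48 to 0.62; adjusted p = 0.984). Col1a2, the partner chain, was at 2361, 1710 and 1970 CPM without and 1911, 1314 and 2229 CPM with BMP-2, with overlapping groups (log2 change -0.15, SE 0.211, interval -0.63 to 0.34; adjusted p = 0.952). Col3a1, the single chain of collagen III, was at 2719, 2515 and 2609 CPM without and 2802, 1784 and 2685 CPM with BMP-2 (log2 change -0.11, SE 0.181, interval -0.52 to 0.31; adjusted p = 0.958). All 3 genes were lowest in BMP-2 replicate 2. The intervals leave out log2 changes of 1 in either direction. Their signs were not stable: Col1a1 was at -0.26 without the unnumbered library, and Col1a2 and Col3a1 were at 0.040 and 0.069 without BMP-2 replicate 2.

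The RPKM ratio of Col1a1 to Col1a2 was 1.39, 1.61 and 1.65 in control libraries and 1.44, 1.82 and 2.07 with BMP-2 (exact two-sided permutation p = 0.3, n = 3 each), with overlapping groups. Of the collagen V chains, which co-assemble with collagen I and limit fibril width, Col5a1 was at 657, 701 and 720 CPM without BMP-2 and at 541, 479 and 627 CPM with it. Every BMP-2 library was below every control, but the difference did not pass the test (log2 change -0.34, SE 0.129; adjusted p = 0.391). Col5a2 had a log2 change of -0.00062 and Col5a3 of -0.18, both with overlapping groups. Col24a1, known from developing bone, was at 1.44, 1.20 and 1.53 CPM without and 2.55, 3.58 and 5.98 CPM with BMP-2. Its groups did not overlap, and the unnumbered library was highest (log2 change 1.52, SE 0.363; adjusted p = 0.110). Of 5 tested bone markers, 4 had log2 changes above 0 and 1 below. Sp7 rose, and Runx2 had a log2 change of 0.09. Alpl (log2 change 3.96, adjusted p = 0.0647) and Dmp1 (0.89, adjusted p = 0.465) were higher in every BMP-2 library without passing. Phex was lower in every BMP-2 library (log2 change -1.36, adjusted p = 0.199). The summed level of the list overlapped, from 31.8 to 42.1 CPM without and from 41.8 to 147 CPM with BMP-2, highest in the unnumbered library. Ibsp, which did not pass the low-count filter, was at 0 counts in every control. It had 1, 3 and 1194 counts in BMP-2 libraries 1 and 2 and the unnumbered one, so it was high in 1 library only. The part of the bone markers in the values of Col24a1 was not tested. Col27a1 had a log2 change of 0.16.

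Collagen VI forms beaded microfibrils around cells from a chain each of Col6a1 and Col6a2 with Col6a3, Col6a5 or Col6a6, or in the mouse also Col6a4, as the last chain. Col6a4 is not a member. The 5 members of this class all had log2 changes below 0 (median -0.21), and 1 of them, Col6a5, fell. Col6a5 and Col6a6 are neighbours on chromosome 9 of GRCm39, the build of the count table: Col6a6 at chr9:105565008-105705359 and Col6a5 at chr9:105733277-105837842, both on the minus strand. Their promoters are shown because every BMP-2 library was below every control for both neighbours, each from 250 bases before to 50 after the RefSeq gene start, on the gene's strand. The sequences are those of RefSeq on GRCm38.p6, chr9:105828036-105828335 for Col6a6 and chr9:105960594-105960893 for Col6a5. Capitals mark the motifs searched on both strands: GGAGCC or GGCTCC and GGCGCC, known as GC-rich sites of BMP-responsive SMADs, and CAGCTG, an E-box favoured by myogenic factors.
Col6a6: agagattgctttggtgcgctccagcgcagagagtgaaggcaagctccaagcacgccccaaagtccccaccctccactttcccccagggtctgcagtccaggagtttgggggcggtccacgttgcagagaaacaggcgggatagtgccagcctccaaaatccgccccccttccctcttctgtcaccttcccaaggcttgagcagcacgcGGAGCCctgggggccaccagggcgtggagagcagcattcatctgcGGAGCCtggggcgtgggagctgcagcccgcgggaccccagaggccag
Col6a5: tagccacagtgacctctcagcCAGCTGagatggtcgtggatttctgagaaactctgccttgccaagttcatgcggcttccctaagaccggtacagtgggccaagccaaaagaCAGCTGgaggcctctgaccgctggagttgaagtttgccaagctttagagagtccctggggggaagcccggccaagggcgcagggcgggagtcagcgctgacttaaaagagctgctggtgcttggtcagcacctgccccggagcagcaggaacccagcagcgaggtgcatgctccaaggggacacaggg
The Col6a6 window held GGAGCC at 2 places and the Col6a5 window CAGCTG at 2 places. Of 32851 RefSeq promoters of the same length, 30.8% held GGAGCC or its complement, 16.3% CAGCTG and 11.9% GGCGCC. A promoter was matched for 30 members, of which 9 (30%), 5 (16.7%) and 7 (23.3%) held them. A match is a description of letters, not of binding.

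Col6a5 was at 11.9, 8.76 and 13.8 CPM in control replicates 1, 2 and 3 and at 3.83, 2.67 and 1.66 CPM in BMP-2 libraries 1 and 2 and the unnumbered one. Every BMP-2 library was below every control, and the mean fell from 11.5 ± 2.53 to 2.72 ± 1.09 CPM (SD, n = 3 each), a 4.19-fold lower fitted level (log2 change -2.07, SE 0.324, 95% interval -2.81 to -1.33; edgeR adjusted p = 0.0353). The call rests on the full set of libraries: the adjusted p was 0.0307 without BMP-2 replicate 1, but 0.120, 0.0767 and 0.0642 without control replicates 1, 2 and 3, 0.0723 without BMP-2 replicate 2 and 0.0881 without the unnumbered library. The log2 change stayed between -2.40 and -1.81 in these fits. Col6a6, its neighbour, was the more abundant per length, at 11.0 ± 0.749 RPKM against 1.21 ± 0.265 RPKM in controls (SD, n = 3). It was at 113, 99.7 and 112 CPM without and 54.5, 20.4 and 30.8 CPM with BMP-2. The groups were far apart, with BMP-2 replicate 1 the highest of the treated libraries, but the gene did not pass (log2 change -1.61, SE 0.332; adjusted p = 0.0954). It passed without BMP-2 replicate 1 (adjusted p = 0.00647).

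The gene next to Col6a6 on the other strand, Pik3r4, was at 42.0, 42.9 and 43.6 CPM without and 36.5, 40.5 and 41.1 CPM with BMP-2 (log2 change -0.12; adjusted p = 0.847), and Col6a4, beyond Col6a5, was at or below 2.59 CPM in every library (log2 change -0.07; adjusted p = 0.992). Both were chosen after their values were seen. The common chains differed less: Col6a1 was at 683, 519 and 569 CPM without and 577, 405 and 558 CPM with BMP-2 (log2 change -0.20, SE 0.168; adjusted p = 0.861). Col6a2 was at 715, 529 and 541 CPM without and 584, 401 and 559 CPM with BMP-2 (log2 change -0.21, SE 0.181; adjusted p = 0.870). Col6a3, the usual last chain, was at 770, 796 and 806 CPM without and 644, 573 and 872 CPM with BMP-2 (log2 change -0.18, SE 0.162; adjusted p = 0.877). The groups overlapped for all 3. Of the summed RPKM of Col6a3, Col6a5 and Col6a6, which leaves out Col6a4, Col6a5 and Col6a6 together made up 17.2%, 14.9% and 16.6% in control libraries and 10.4%, 4.91% and 4.56% with BMP-2. The groups did not overlap (16.3 ± 1.23% and 6.62 ± 3.28%, SD, n = 3 each; p = 0.1 in a two-sided exact permutation test, the smallest possible).

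**Figure D3:**
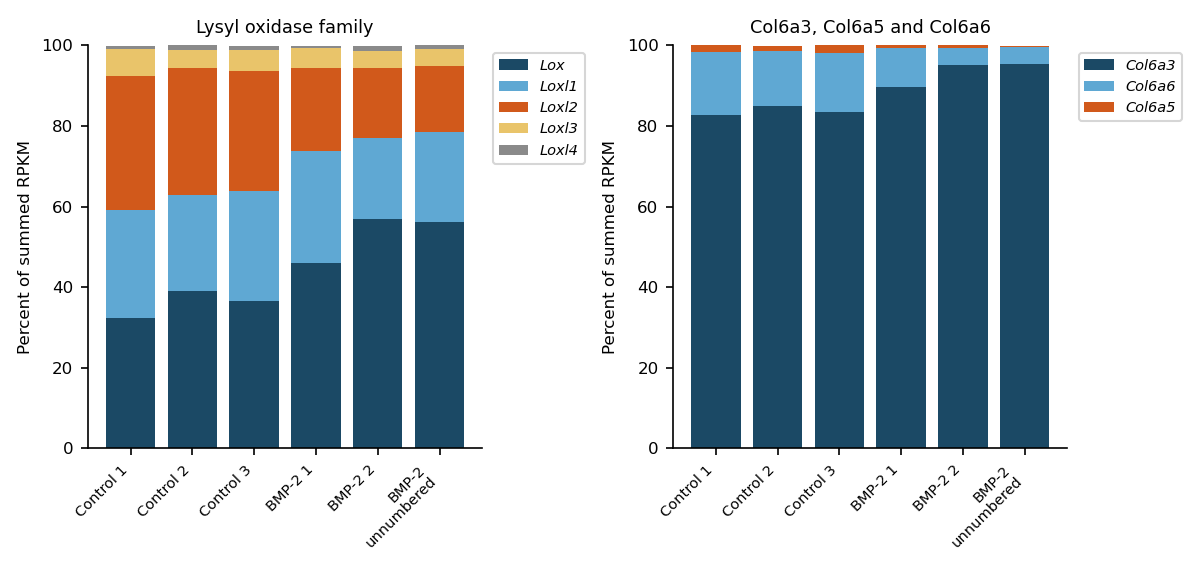
Percent of summed RPKM in each library, as stacked bars for the 5 lysyl oxidase genes (left) and the collagen VI chains Col6a3, Col6a5 and Col6a6, without Col6a4 (right). The Lox share was 32.4 to 39.1% in controls and 46.1 to 57.0% with BMP-2; Col6a5 and Col6a6 together were 14.9 to 17.2% and 4.56 to 10.4%.

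FACIT collagens decorate fibrils and link them to other matrix, and 5 of the 6 here had log2 changes above 0 (median 0.43). Col19a1, a minor FACIT known from embryonic muscle and smooth muscle, rose. It lies at chr1:24300971-24626553 of GRCm39 on the minus strand. Col25a1, a transmembrane collagen made by developing muscle and needed for its innervation, is described with it. Their RefSeq promoters, on GRCm38.p6 at chr1:24587388-24587687 (minus strand) and chr3:130180595-130180894 (plus strand), are printed because these genes had large differences from a very low control level. Capitals mark matches to the same motifs.
Col19a1: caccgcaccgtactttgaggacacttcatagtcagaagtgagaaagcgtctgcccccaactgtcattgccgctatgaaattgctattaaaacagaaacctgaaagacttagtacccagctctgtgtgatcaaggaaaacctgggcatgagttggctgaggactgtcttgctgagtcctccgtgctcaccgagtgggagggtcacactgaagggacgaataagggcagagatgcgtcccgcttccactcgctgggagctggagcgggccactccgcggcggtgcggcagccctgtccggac
Col25a1: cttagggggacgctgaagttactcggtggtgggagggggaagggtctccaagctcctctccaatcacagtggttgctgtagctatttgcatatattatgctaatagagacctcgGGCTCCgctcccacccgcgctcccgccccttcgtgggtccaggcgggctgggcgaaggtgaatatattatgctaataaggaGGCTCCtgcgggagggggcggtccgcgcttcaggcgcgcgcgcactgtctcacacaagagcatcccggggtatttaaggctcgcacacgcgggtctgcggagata
The Col19a1 window held no match to the 3 motifs, which says only that these letters are not in it, and the Col25a1 window held GGCTCC at 2 places.

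Col19a1 was at 0, 0.150 and 0.150 CPM in control replicates 1, 2 and 3 and at 2.95, 1.65 and 2.42 CPM in the treated libraries 1, 2 and unnumbered. The 0 counts of control replicate 1 allow up to 0.149 CPM, the level of 3 counts. Every BMP-2 library was above every control (log2 change 4.44, SE 0.630, 95% interval 2.99 to 5.88; edgeR adjusted p = 0.0253). Col19a1 passed the low-count filter only through the BMP-2 libraries, so it could be called in this direction alone. In reads, 7 control counts stood against 192 with BMP-2, a depth-scaled ratio of 22.9 with an exact 95% interval of 10.9 to 57.7 that covers counting error only. The adjusted p was 0.0404 without control replicate 3 and 0.0313 without BMP-2 replicate 2, but 0.0638 and 0.0894 without control replicates 1 and 2, 0.0684 without BMP-2 replicate 1 and 0.0881 without the unnumbered library. Col22a1, a FACIT of the junction between muscle and tendon, was at 0.0498, 0.0501 and 0.449 CPM without and 1.34, 0.699 and 2.72 CPM with BMP-2. Its groups did not overlap, control replicate 3 was the highest control, and the gene did not pass (log2 change 2.96, SE 0.816; adjusted p = 0.177).

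Col16a1, a FACIT at cell and fibril surfaces, was at 139, 106 and 113 CPM without and 145, 160 and 175 CPM with BMP-2, groups that did not overlap (log2 change 0.43, SE 0.129; adjusted p = 0.218). Col20a1 was lower, at 6.52, 6.61 and 7.89 CPM without and 3.39, 3.37 and 2.55 CPM with BMP-2. Its groups were clearly apart, but it did not pass (log2 change -1.17, SE 0.223; adjusted p = 0.0594). The remaining members of the class, Col12a1 and Col14a1, overlapped between groups. Col12a1 spread widely within them, from 38.7 to 154 CPM without and from 92.8 to 213 CPM with BMP-2 (log2 change 0.43, SE 0.578). Col14a1 ran from 150 to 201 CPM and from 175 to 221 CPM (log2 change 0.20), and an opposite-strand gene overlaps it at 14.2 CPM in controls, so its count is uncertain if strand was not used in counting.

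Of the 4 transmembrane collagens, 0 were called (edgeR; 1 was higher at an unadjusted p under 0.05 and DESeq2 called that gene). It was Col25a1, at 1.94, 1.90 and 4.75 CPM in control replicates 1, 2 and 3 and 23.5, 9.30 and 32.4 CPM in BMP-2 libraries 1 and 2 and the unnumbered one. The lowest BMP-2 library was above the highest control (log2 change 2.9, SE 0.564; adjusted p = 0.0822), and the gene passed without BMP-2 replicate 2 (adjusted p = 0.0263). Col17a1, the hemidesmosomal collagen, was the most abundant of the class at 44.4 ± 8.66 RPKM without BMP-2 and 53.7 ± 4.94 RPKM with it (SD, n = 3 each; log2 change 0.27). Col13a1 had a log2 change of -0.25 and Col23a1 of 0.38, and neither passed.

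Skeletal muscle markers were also higher with BMP-2, beside the muscle-associated collagens. All 12 tested muscle markers had log2 changes above 0 (median 4.19), and 1 (Pax7) rose. Several passed the low-count filter only through the BMP-2 libraries, such as Pax7 with 0, 2 and 1 counts in control replicates 1, 2 and 3. For these markers the upward direction was set by the filter and is not a separate result. The summed level of the 12 markers was 10.5, 5.86 and 103 CPM in control replicates 1, 2 and 3 and 833, 199 and 865 CPM in the treated libraries 1, 2 and unnumbered. In control replicate 1, Pax7, Myf5, Myog and Actc1 were at 0 counts. Col25a1 and Col22a1 kept the order of the muscle sum within the BMP-2 group, lowest in BMP-2 replicate 2 and highest in the unnumbered library, and both were highest among controls in control replicate 3. Col19a1 was also lowest of the treated libraries in BMP-2 replicate 2, but highest in BMP-2 replicate 1. Its 0, 3 and 4 counts in control replicates 1, 2 and 3 are too close to the floor of 3 counts to order the controls. With the mean log2 level of the muscle markers as a covariate, edgeR called 0 genes (325 at an unadjusted p under 0.05). In that fit the log2 changes were 0.67 (SE 0.615) for Col25a1, -0.36 (SE 0.893) for Col22a1 and 3.02 (SE 1.23) for Col19a1. Those of Lox, Col8a2 and Col6a5 were 0.84 (SE 0.360), 1.29 (SE 0.515) and -2.51 (SE 0.603). All had an adjusted p of 0.9998. Every BMP-2 library had a higher muscle sum than every control, so treatment and muscle level cannot be told apart for any of these genes.

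**Figure D4:**
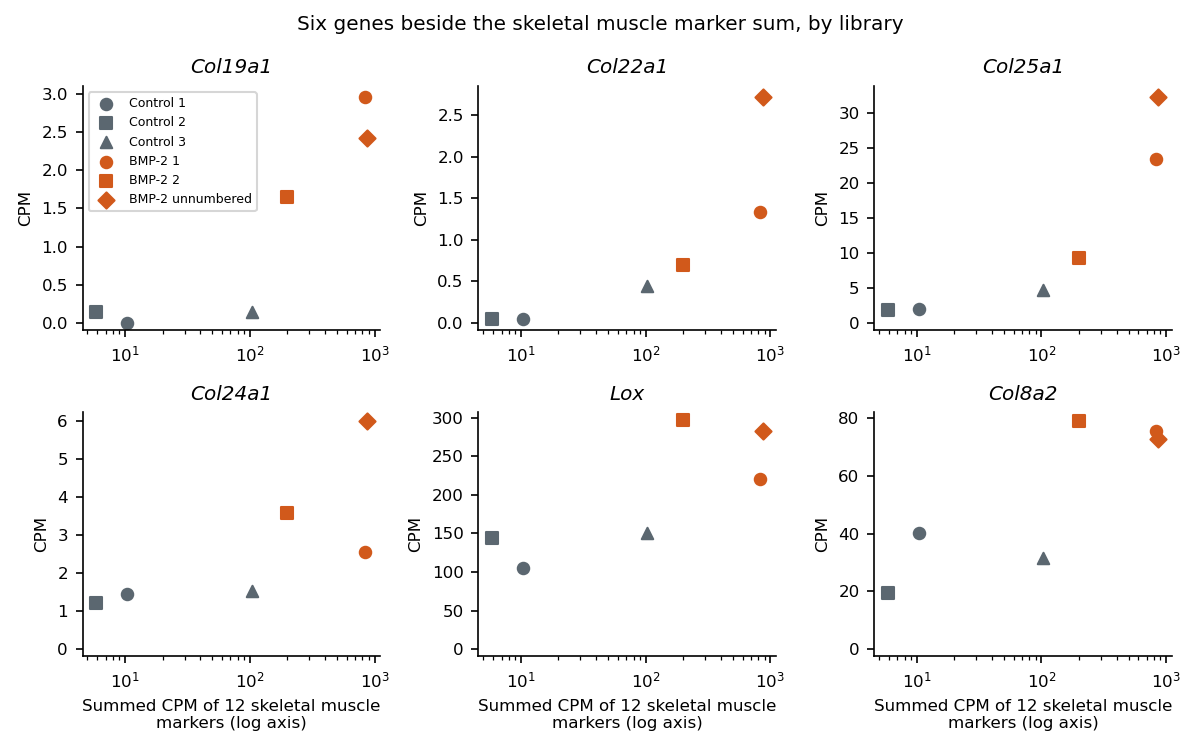
CPM of 6 genes (vertical axes) against the summed CPM of 12 skeletal muscle markers (horizontal log axis), 1 point per library (grey, control; orange, BMP-2). Col25a1 and Col22a1 are higher in libraries with a higher muscle sum, including control replicate 3; Col19a1 is lowest of the treated libraries where the muscle sum is lowest, and Lox and Col8a2 are highest there.

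The 6 network-forming, anchoring and other collagens held 0 called genes (edgeR; 1 was higher at an unadjusted p under 0.05, and DESeq2 called it), with a median log2 change of 0.021. That gene was Col8a2, a short-chain network collagen best known from the corneal endothelium, at 40.3, 19.3 and 31.7 CPM without and 75.6, 79.1 and 72.9 CPM with BMP-2. The BMP-2 libraries lay close together and well above every control (log2 change 1.32, SE 0.235, 95% interval 0.77 to 1.86; adjusted p = 0.0540). With library totals in place of TMM scaling it passed (adjusted p = 0.0481). Its partner Col8a1, at 2.29, 5.41 and 9.01 CPM without and 6.06, 8.93 and 3.31 CPM with BMP-2, overlapped (log2 change 0.12, SE 0.516). Col15a1, between basement membrane and stroma, had a log2 change of 0.21, the anchoring-fibril collagen Col7a1 of -0.12 and Col26a1 of -0.49, all without passing. Col28a1, known from glia of peripheral nerves, had a log2 change of -0.08, and the nerve and glia markers beside it summed to 56.7 to 82.7 CPM without and 26.4 to 56.6 CPM with BMP-2, with 0 of 5 called and 4 of 5 lower.

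Among the lysyl oxidases, Lox rose, and the shares of Lox and Loxl2 in the family's RNA did not overlap between groups. Lox, the founding cross-linking enzyme, is at chr18:52649139-52662939 on the minus strand of GRCm39. It was at 105, 144 and 151 CPM in control replicates 1, 2 and 3 and at 220, 298 and 283 CPM in BMP-2 libraries 1 and 2 and the unnumbered one. Every BMP-2 library was above every control, at a 2.01-fold higher fitted level (log2 change 1.0, SE 0.170, 95% interval 0.62 to 1.40; edgeR adjusted p = 0.0420). The adjusted p was 0.0435 without BMP-2 replicate 1, but 0.104, 0.144 and 0.0513 without control replicates 1, 2 and 3, 0.0769 without BMP-2 replicate 2 and 0.143 without the unnumbered library, with log2 changes of 0.86 to 1.13 throughout. It was 0.0653 with library totals and 0.0538 with limma-voom.

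Loxl2, a relative with scavenger receptor domains, was at 128, 137 and 146 CPM without and 117, 107 and 99.1 CPM with BMP-2. Every BMP-2 library was below every control, yet the gene did not pass (log2 change -0.34, SE 0.103; adjusted p = 0.211). In control primordia Lox and Loxl2 were at similar per-length levels, 27.8 ± 5.20 and 24.1 ± 1.64 RPKM, and with BMP-2 at 55.9 ± 8.58 and 19.0 ± 1.60 RPKM (SD, n = 3 each). Of the family's summed RPKM, Lox made up 32.4%, 39.1% and 36.6% without and 46.1%, 57.0% and 56.1% with BMP-2 (exact two-sided permutation p = 0.1, n = 3 each). Loxl2 made up 33.2%, 31.3% and 29.9% without and 20.6%, 17.3% and 16.5% with BMP-2 (p = 0.1 in the same exact test). Neither share overlapped between groups, and 0.1 is the smallest p the design allows. The family's summed RPKM was 67.6, 76.9 and 86.1 without and 100, 109 and 106 with BMP-2 (exact p = 0.1), also without overlap. Loxl1, which acts on elastic fibres, had a log2 change of 0.29 and Loxl4 of 0.15. Loxl3 was at 21.1, 15.9 and 20.3 CPM without and 22.1, 21.4 and 21.2 CPM with BMP-2, a narrow separation (log2 change 0.18; adjusted p = 0.847), and the opposite-strand gene Htra2 overlaps it.

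**Figure D5:**
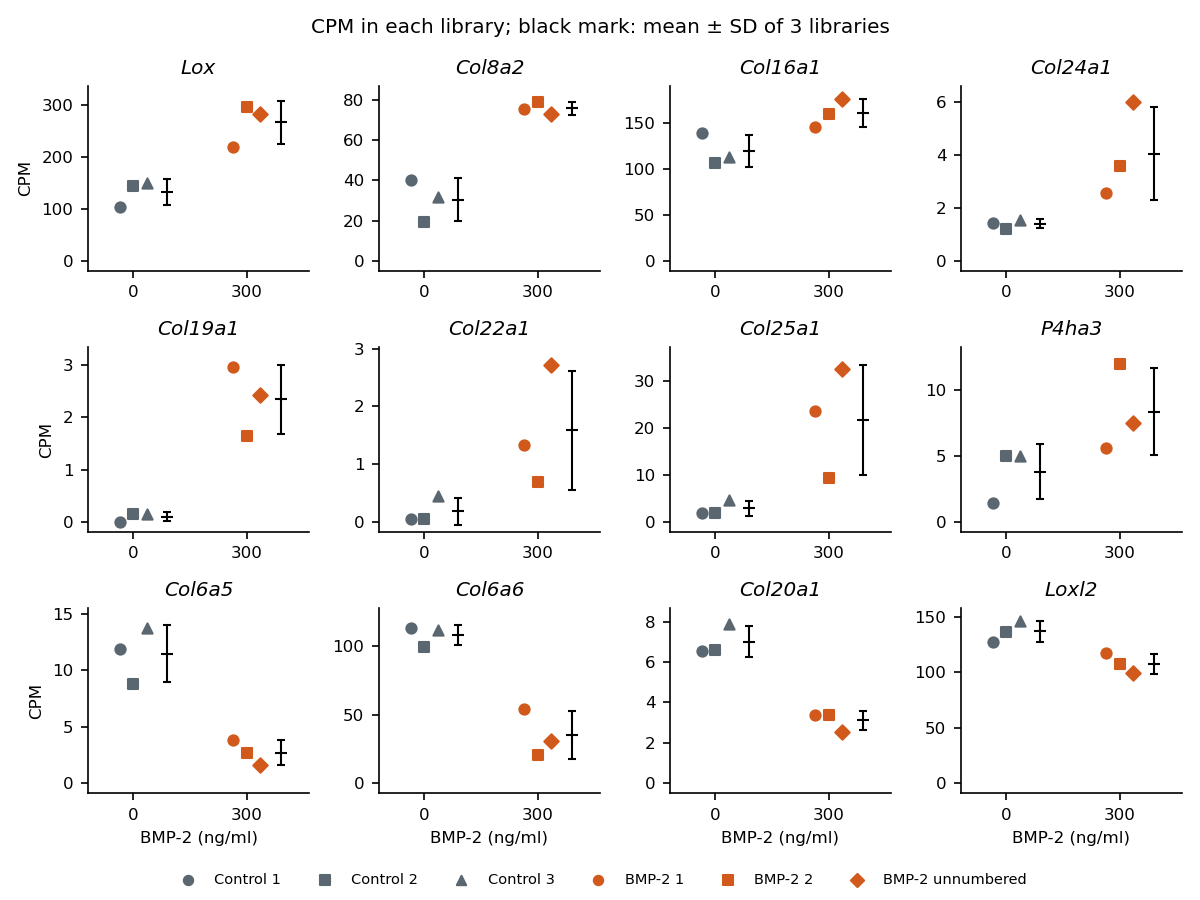
CPM of 12 genes (1 panel each, axis from 0) in the 3 control and 3 BMP-2 libraries, with 1 point per library and the mean ± SD of each group in black. The 12 genes are among the members whose groups do not overlap, so the separation in each panel follows from the choice. Such members are 34.1% of the group, against 15.5% of all tested genes. Lox was at 105 to 151 CPM in controls and 220 to 298 CPM with BMP-2, and Col6a5 at 8.76 to 13.8 CPM and 1.66 to 3.83 CPM.

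The intracellular enzymes held 0 called genes in edgeR (at an unadjusted p under 0.05, 1 was higher), and DESeq2 called 0 as well. The lysyl hydroxylases Plod1, Plod2 and Plod3, which prepare lysines for cross-linking and glycosylation, had log2 changes of 0.17, 0.28 and 0.08 with overlapping groups. Plod2, which acts on the telopeptides, ran from 36.8 to 60.9 CPM without and from 49.2 to 68.7 CPM with BMP-2. Plod3 overlaps the opposite-strand gene Znhit1, at 24.9 CPM in controls. Of the catalytic prolyl 4-hydroxylase subunits, which stabilise the triple helix, P4ha3 was at 1.44, 5.01 and 5.05 CPM without and 5.60, 12 and 7.55 CPM with BMP-2. Its lowest BMP-2 value was just above its highest control value (log2 change 1.12, SE 0.478; adjusted p = 0.483). P4ha1, the most abundant of the subunits per length at 14.3 ± 0.963 RPKM (SD, n = 3), had a log2 change of 0.28, and P4ha2 of 0.57. Serpinh1 was at 759, 622 and 655 CPM without and 750, 694 and 804 CPM with BMP-2, and its groups overlapped (log2 change 0.14, SE 0.124; adjusted p = 0.873). Together with the lysyl oxidases, 11 of these 12 enzyme and chaperone genes had positive log2 changes, with Loxl2 the exception. Over all tested genes, 8171 of 17006 were positive. Most of these changes were small, and the signs of Loxl4, Plod1, Plod3 and P4ha1 were not stable when single libraries were left out.

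Other genes of the collagen pathway were read from 5 lists that cover procollagen modification, secretion, propeptide removal, fibril assembly and collagen receptors or uptake. Of 51 tested genes, 0 were called by edgeR (at an unadjusted p under 0.05, 3 were higher and 1 lower), limma-voom called 0 and DESeq2 called 1 (Bgn). Their median log2 change was 0.14. The lowest p belonged to Bgn, the fibril-binding proteoglycan biglycan, at 567, 504 and 565 CPM without and 766, 760 and 886 CPM with BMP-2. Its groups did not overlap (log2 change 0.56, SE 0.118; adjusted p = 0.0775). Thbs2, another fibril regulator, had a log2 change of 0.31 (adjusted p = 0.401). In the modification list, Colgalt2, a collagen galactosyltransferase, had -0.55 (adjusted p = 0.295) and the prolyl 3-hydroxylase P3h3 0.35 (adjusted p = 0.513). The coat proteins Sec24d and Sec23a of procollagen secretion had 0.25 and 0.19, the proteases Furin and Bmp1 of propeptide removal 0.16 and 0.18, and the collagen receptors Ddr1 and Itga10 0.33 and 0.80, all log2 changes that did not pass.

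Collagens outside the group are given for scale. Of 7 cartilage collagens 3 rose, Col2a1 (log2 change 4.44), Col9a2 (1.16) and Col10a1 (2.97), with a median over the class of 1.16. At an unadjusted p under 0.05, 7 cartilage collagens were higher and 0 lower. Of 7 basement membrane collagens 0 were called by edgeR (at an unadjusted p under 0.05, 1 was higher and 1 lower), with a median of 0.064. The 2 with the lowest p were Col18a1 at -0.39 (adjusted p = 0.146) and Col4a6 at 0.47 (adjusted p = 0.346). The difference between classes was not tested. Mesenchymal markers summed to 1114 to 1168 CPM without and 1237 to 1487 CPM with BMP-2. Of 7 tested, 0 were called, but 4 were higher and 0 lower at an unadjusted p under 0.05. Cartilage markers, of which 2 of 5 tested rose (Acan and Col2a1), summed to 30.1 to 32.7 CPM without and 51.9 to 89.5 CPM with BMP-2. The part of both lists in the values of Lox and Col8a2 was not tested. Epithelial markers, of which 0 of 9 were called, summed to 4253 to 4931 CPM and 3619 to 5277 CPM. Markers of endothelium, macrophages, smooth muscle and tendon held 0 called genes, and the summed levels of these 4 lists overlapped between groups.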

How the data were processed

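Poly(A) RNA of 6 samples was sequenced. The authors deposited raw counts per gene, without normalization. Cutadapt 2.9, HISAT2 2.2.0, featureCounts and build GRCm39 are named in the submitters' processing notes. The handling of strand and of multiply mapped reads was not given in the sources used here. Library totals ran from 19724383 to 32473558 counts. The name of 1 column matched no sample label; it was used as a BMP-2 library by its first letter. Replicate pairs differed beyond counting noise, with a chi-square of 12.7 to 38.2 per degree of freedom, and all were kept as separate libraries.

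All 17006 genes passing edgeR's default expression filter were tested with edgeR 4.0.16 (R 4.3.3; robust quasi-likelihood fit, TMM factors, Benjamini-Hochberg adjustment over all of them, threshold 0.05, 4 residual degrees of freedom). Genes with few control counts, such as Col19a1, Col22a1, Pax7, Sp7, Msx2, Acan and Col10a1, passed this filter only through the BMP-2 libraries. The fitting script was tested on simulated data. CPM use TMM-scaled library sizes, and RPKM divide CPM by the deposited gene length. Means are given ± SD, and single values were compared by an exact two-sided permutation test. Counting ratios and floors (3 counts) cover counting error only. DESeq2 1.42.0 and limma-voom (limma 3.58.1), other scalings, filters and thresholds, a replicate block, a skeletal muscle covariate and leaving out each library were alternatives. Motifs were counted in RefSeq promoters of GRCm38.p6, another build than the counts, so no coordinates were carried over.

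The members and gene lists were chosen with earlier results of these data known. Every member is named; full statistics are given for members with an unadjusted p under 0.05 and the 8 most abundant by CPM. In the lists of other pathway, collagen and BMP-response genes the called genes, or the 2 with the lowest p where none was called, are named. Cell type marker lists are given by their counts and summed levels with their called genes, and other markers named were chosen after their values were seen. 4 listed symbols without a row were not analysed here.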

Additional observations from a re-analysis of the deposited data

How the results depend on the processing

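The 155 calls over all genes, the 2 members that rose and the 1 that fell depended on the test. In that order the counts were 695, 6 and 3 with DESeq2, 78, 1 and 1 with limma-voom, 552, 4 and 2 without the low-count filter, 20, 0 and 0 at an adjusted p under 0.01 and 370, 4 and 3 under 0.1. Leaving out each library gave 20 to 151, 0 to 2 and 0 to 2. The muscle covariate gave 0, 0 and 0 in edgeR (at an unadjusted p under 0.05, 325 genes, 3 members higher and 3 lower) and moved the members' median log2 change from 0.15 to 0.014. With DESeq2 size factors, upper-quartile factors, the 1 CPM filter and edgeR without the robust option the called members were again Col19a1, Lox and Col6a5. With library totals the counts were also 2 and 1, but Col8a2 (adjusted p = 0.0481) replaced Lox (0.0653). A replicate block, possible only for the 4 libraries with shared numbers, gave 540, 5 and 1, and the same 4 libraries without it, chosen after seeing the data, gave 42, 0 and 0 (7 members higher and 5 lower at an unadjusted p under 0.05). The deviations of same-numbered libraries correlated at r = 0.43 and 0.14, and those of the crossed pairs of these 4 libraries at -0.31 and -0.34. Pairs that include control replicate 3 or the unnumbered library ran from -0.15 to 0.22. No source says that the numbers pair libraries, and they were not taken as a pairing. The log2 change of Col1a1 turned to -0.22 with the block, -0.22 without it in those libraries and -0.39 with the muscle covariate, and ran from -0.26 to 0.25 when single libraries were left out. That of Col22a1 turned to -0.36 with the covariate, and those of Col1a2 and Col3a1 ran from -0.32 to 0.040 and from -0.23 to 0.069 over the left-out libraries. The cause was not tested. Of the 41 log2 changes, those of Col22a1, Col19a1 and Col12a1 had the largest SEs, 0.816, 0.630 and 0.578.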
